A study of Mus musculus with 6 samples.

Results

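The 9 transcription factors described here are those that set and keep the identity of monocytes: Spi1, Cebpa, Cebpb, Cebpd, Klf2, Klf4, Nr4a1, Zeb2 and Bcl6. They were chosen by gene symbol, with 1 row per symbol, out of 46072 rows, and all 9 were among the 16138 genes with enough counts to be tested. Messenger RNA was measured in monocytes isolated from the spleens of female C57BL/6 mice, with 3 libraries in each of 2 groups. Con animals received water by oral gavage for 6 days, and Van animals received 2 mg of the antibiotic vancomycin per day over the same 6 days. Both groups then rested without antibiotic, for 6 to 8 days by the labels and for 8 days by the text of the study. The mice were 8 to 10 weeks old when obtained, per the methods of the study. Cells were taken by magnetic negative selection, which removes lymphocytes, NK cells, granulocytes and progenitors by their surface antigens and leaves classical and nonclassical monocytes together. The study selected 3 mice per group for these libraries, which is 1 mouse per library. The study asked which changes in gene expression accompany a stronger inflammatory response of these cells after vancomycin, and the comparison below asks whether the factors of monocyte identity differed between Van and Con at rest.

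Monocytes arise in the bone marrow from myeloid progenitors under PU.1, the ETS factor encoded by Spi1, and the leucine zipper factor C/EBPα, encoded by Cebpa. Classical monocytes, high in Ly6C and Ccr2, are released into the blood, and a fraction becomes nonclassical monocytes that patrol the vessel wall. The nuclear receptor Nr4a1 and C/EBPβ are needed for the nonclassical cells, and KLF4 for monocyte differentiation. The spleen holds a reservoir of both kinds. In bulk RNA, fewer cells of a type and less RNA per cell cannot be told apart.

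Promoter windows were available for 7 of the 9 factors in RefSeq (GRCm38.p6), without Spi1 and Cebpd. Those of Cebpa, Klf2 and Klf4, the 3 factors with the smallest p-values below, and of Nr4a1, the most abundant factor, are printed here 5′ to 3′ on the gene's strand, from 250 bases before the start site to the base before it. The Klf2 window is 221 bases long because it ends before the annotated first exon. Capitals mark every CACCC (a box bound by KLF factors), CGTCA (the core of a cAMP response element) and MEF2-type box (CTA and TAG with any 4 bases between them), each searched on both strands, and these 3 motifs were chosen for marking after the sequences had been seen.
Cebpa, chr7:35119043-35119292, plus strand: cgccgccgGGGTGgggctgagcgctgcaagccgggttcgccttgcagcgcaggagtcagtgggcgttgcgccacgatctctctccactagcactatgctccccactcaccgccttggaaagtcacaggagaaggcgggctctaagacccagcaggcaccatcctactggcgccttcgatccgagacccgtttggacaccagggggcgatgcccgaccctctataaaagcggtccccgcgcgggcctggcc
Klf2, chr8:72318812-72319032, plus strand: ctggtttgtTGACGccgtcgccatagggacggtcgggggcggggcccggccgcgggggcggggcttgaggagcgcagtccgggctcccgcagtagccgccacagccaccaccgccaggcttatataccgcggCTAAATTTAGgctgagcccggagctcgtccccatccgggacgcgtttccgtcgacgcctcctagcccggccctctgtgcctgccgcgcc
Klf4, chr4:55532476-55532725, minus strand: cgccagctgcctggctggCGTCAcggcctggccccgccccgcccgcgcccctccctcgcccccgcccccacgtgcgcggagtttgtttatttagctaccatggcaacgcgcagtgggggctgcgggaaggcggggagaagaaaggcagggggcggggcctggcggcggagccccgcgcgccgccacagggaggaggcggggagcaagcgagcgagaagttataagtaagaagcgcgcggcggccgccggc
Nr4a1, chr15:101266596-101266845, plus strand: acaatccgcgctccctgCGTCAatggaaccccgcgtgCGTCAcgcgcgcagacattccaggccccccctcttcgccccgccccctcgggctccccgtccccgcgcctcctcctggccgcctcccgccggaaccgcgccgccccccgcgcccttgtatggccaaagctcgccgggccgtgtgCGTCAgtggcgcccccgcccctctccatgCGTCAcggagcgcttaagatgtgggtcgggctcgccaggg
The Nr4a1 window held 4 copies of CGTCA, where 17.7% of 32817 RefSeq windows of this length held at least 1 and 0.137% held 4 or more. The Klf4 and Klf2 windows each held 1 copy. The Klf2 window also held a MEF2-type box, a motif present in 3.20% of windows. The Cebpa window held 1 CACCC, which 52.0% of windows hold, and neither of the other 2 motifs. In the GENCODE M21 annotation of GRCm38, Cebpa lies on chromosome 7 from 35119293 to 35121928, Klf2 on chromosome 8 from 72319033 to 72321656 and Klf4 on chromosome 4 from 55527143 to 55532466. Nr4a1 spans 101254269 to 101274795 on chromosome 15, so its RefSeq window lies inside the annotated gene, upstream of a later start site.

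Levels between factors were compared as FPKM, fragments scaled to transcript length and library size. Nr4a1 was by far the most abundant, at 1139.7 ± 46.2 FPKM in Con and 1236 ± 221 FPKM in Van (SD, n = 3 each), and ranked 28 among all tested genes by mean FPKM. Cebpb followed at 341 ± 20.4 FPKM in Con and 365 ± 25.2 FPKM in Van (SD, n = 3 each). The remaining order by the mean of all 6 libraries was Spi1 (297 FPKM), Klf2 (257 FPKM), Klf4 (185 FPKM), Zeb2 (70.9 FPKM), Cebpa (54.8 FPKM), Bcl6 (50.6 FPKM) and Cebpd (24.0 FPKM).
Several neighbours in this order did not separate. Cebpb and Spi1 overlapped between Con libraries, although Cebpb was the higher in 6 of 6 libraries, and Spi1 was above Klf2 in 4 of 6. Zeb2 was above Cebpa in 5 of 6 libraries, with overlap in Van. Cebpa and Bcl6 overlapped in both groups, and Cebpa was the higher in 2 of 6 libraries, Van libraries 2 and 3.

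**Figure D1:**
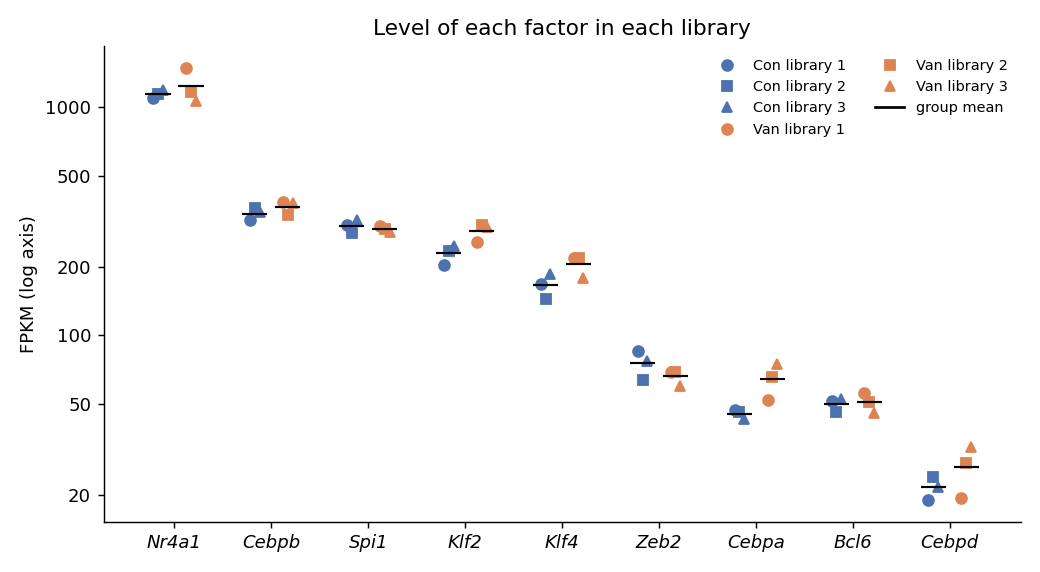
FPKM of the 9 factors (log axis) in each of 3 Con and 3 Van libraries; horizontal lines are group means. Nr4a1 lies between 1063 and 1485 FPKM and Cebpd between 19.0 and 32.4 FPKM.

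None of the 9 factors passed the adjusted threshold between Van and Con, where 2.00% of all tested genes did, 1.08% higher and 0.917% lower in Van (edgeR's quasi-likelihood test, Benjamini-Hochberg adjusted p at most 0.05). DESeq2, another count test, called 2 of the 9, Cebpa and Klf2, beside 7.36% of the genes it tested. On FPKM, limma called 0, beside 0.243% of the genes, a share at which none of 9 says nothing about the factors. The counts of gene lists below are read against these shares, 2.00% for edgeR, 7.36% for DESeq2, 0.243% for limma and 16.5% at an unadjusted edgeR p under 0.05. At an unadjusted edgeR p under 0.05 there were 3 of 9, Cebpa, Klf2 and Klf4, all higher in Van, beside 16.5% of all genes in either direction made up of 8.37% with higher and 8.14% with lower values in Van. Of the 9, 7 were higher in Van, against 49.6% of all genes. Their median log2 fold change was 0.11, that of all genes −0.0014 and the median size of a change over all genes 0.15. In 2 of 9, Cebpa and Klf2, the Van libraries did not overlap with the Con libraries, beside 22.5% of all genes without overlap and 11.5% without overlap and higher in Van.

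C/EBPα is the factor that commits progenitors to the granulocyte and monocyte lineage. Values per library are given as CPM, counts scaled to library size by TMM. Cebpa was at 149, 146 and 133 CPM in Con and 164, 202 and 237 CPM in Van. Every Van library lay above every Con library, and the Van libraries spread more widely than those of Con. The fitted difference was 1.41-fold (log2 fold change 0.49, SE 0.12, 95% interval 0.22 to 0.77, edgeR adjusted p = 0.0833). The exact two-sided permutation test gave p = 0.1, the smallest that 3 against 3 libraries allow. Without Van library 1 the log2 fold change was 0.62 with an edgeR adjusted p of 0.0361, and without Van library 3 it was 0.36. DESeq2 gave an adjusted p of 0.0014 for the same gene.

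KLF2 keeps endothelial and myeloid cells quiescent, and KLF4 drives monocyte differentiation. Klf2 was at 453, 523 and 536 CPM in Con and 567, 655 and 660.3 CPM in Van, without overlap (log2 fold change 0.32, SE 0.08, 95% interval 0.12 to 0.51, edgeR adjusted p = 0.105). Its exact two-sided permutation p was also 0.1, and DESeq2 gave an adjusted p of 0.0096. Klf4 was at 605, 520.4 and 651 CPM in Con and 780.4, 762 and 639 CPM in Van, and Van library 3 lay below Con library 3 (log2 fold change 0.30, SE 0.10, 95% interval 0.07 to 0.53, edgeR adjusted p = 0.192). Klf2 and Klf4 had folds of 1.24 and 1.23, and the ratio of their FPKM values spanned 1.21 to 1.63 in Con and 1.18 to 1.68 in Van.

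PU.1 governs myeloid genes together with C/EBP factors. Spi1 was at 581, 549 and 609 CPM in Con and 599, 565 and 559 CPM in Van, with overlapping groups and a 95% interval of the log2 fold change from −0.15 to 0.12 (edgeR adjusted p = 0.944). The largest change that this interval allows is smaller than the estimate for Cebpa. Its Van libraries had an SD of 21.4 CPM. The FPKM ratio of Cebpa to Spi1 was 0.155, 0.164 and 0.134 in Con and 0.173, 0.224 and 0.266 in Van, with every Van library above every Con library.

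Cebpd, a C/EBP factor induced in acute inflammation, was the lowest of the factors in FPKM, and was at 27.2, 34.3 and 30.2 CPM in Con and 27.5, 37.9 and 45.8 CPM in Van. The Van libraries ran from beside the lowest Con library to above the highest (log2 fold change 0.28, SE 0.17, 95% interval −0.11 to 0.67, edgeR adjusted p = 0.477). Without Van library 3 the log2 fold change was 0.10, and without Van library 1 it was 0.45. Cebpb, which the nonclassical cells need and which also drives inflammatory genes, was at 579, 650.5 and 609.6 CPM in Con and 688, 590.4 and 680.1 CPM in Van (log2 fold change 0.09, SE 0.07, 95% interval −0.08 to 0.26, edgeR adjusted p = 0.619). The FPKM ratio of Cebpb to Cebpa was 6.79, 7.78 and 8.04 in Con and 7.35, 5.12 and 5.03 in Van, so that Van library 1 lay within the range of Con and the other two below it.

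Nr4a1, the nuclear receptor that nonclassical monocytes require, was at 3266, 3402 and 3445 CPM in Con and 4403, 3347 and 3146 CPM in Van. Van library 1 was the highest of all and Van library 3 the lowest, with the Con libraries close together between them. The groups overlapped (log2 fold change 0.11, SE 0.11, 95% interval −0.15 to 0.37, edgeR adjusted p = 0.714), and the log2 fold change turned to −0.05 when Van library 1 was left out. Zeb2 encodes a zinc finger repressor that supports monocytes and dendritic cells against other fates, and was at 579, 567 and 589 CPM in Con and 577, 558 and 515 CPM in Van (log2 fold change −0.07, SE 0.06, 95% interval −0.20 to 0.06, edgeR adjusted p = 0.6). Bcl6, a repressor of inflammatory genes in macrophages, was at 221, 197 and 219.6 CPM in Con and 237, 211 and 194 CPM in Van (log2 fold change 0.01, SE 0.08, 95% interval −0.18 to 0.20, edgeR adjusted p = 0.967). Both had overlapping groups and intervals around 0.

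**Figure D2:**
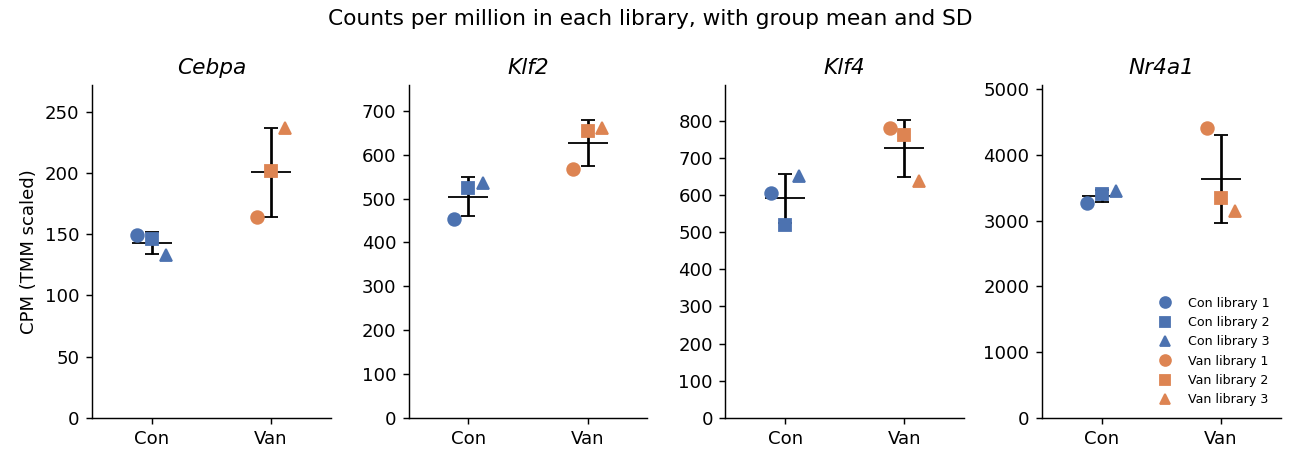
CPM of Cebpa, Klf2, Klf4 and Nr4a1 in each of 3 Con and 3 Van libraries, with the group mean and SD; axes start at 0. The Van libraries lie above the Con libraries for Cebpa and Klf2, while Klf4 and Nr4a1 overlap.

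**Figure D3:**
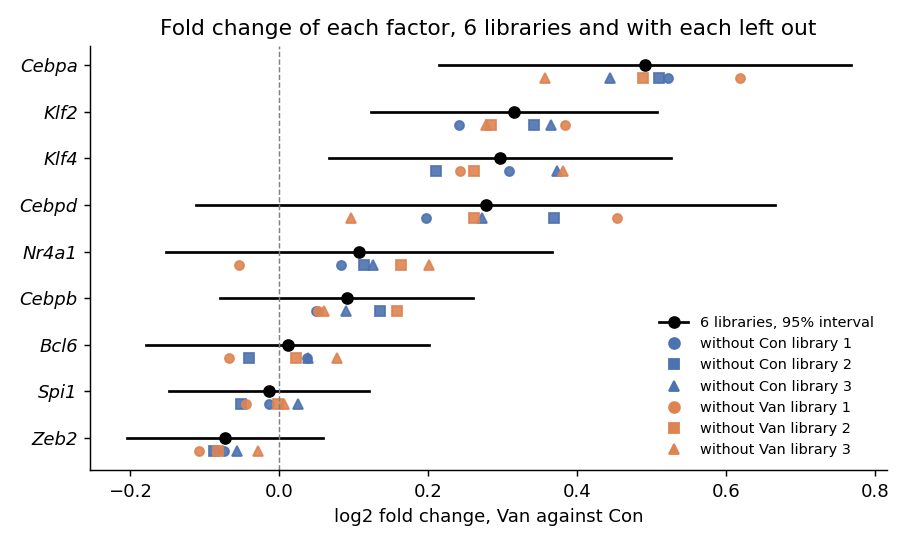
Log2 fold change (Van against Con) of the 9 factors from all 6 libraries with its 95% interval (black), and with each library left out (coloured). Cebpa, Klf2 and Klf4 stay above 0 in all 6 fits that leave out a library, and Nr4a1 falls below 0 without Van library 1.

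The factors of nonclassical monocytes (Nr4a1, Cebpb and Klf2) were set against a group of lineage and classical factors (Spi1, Cebpa, Klf4 and Cebpd). The balance was the difference of their mean log2 CPM in each library. As Spi1, Cebpa and Klf4 serve the lineage as a whole, it does not measure classical against nonclassical cells. This balance was 2.29, 2.43 and 2.38 in Con and 2.48, 2.18 and 2.17 in Van. The means were 2.37 ± 0.07 and 2.28 ± 0.18 (SD, n = 3 each). Van library 1 was the highest and the other two Van libraries the lowest, so the groups overlapped, and the difference of −0.09 was within the spread of Van. Without Cebpd and Klf2 the difference was −0.16. Leaving out Van library 1, the highest, necessarily puts the other Van libraries below every Con library, so it adds no evidence. All 3 nonclassical factors and 3 of the 4 others had positive log2 fold changes, with medians of 0.11 and 0.29.

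The genes that mark each subset pointed both ways. Of 16 nonclassical genes, 8 were higher and 8 lower in Van, with 1 called by edgeR, 2 by DESeq2 and 0 by limma. The edgeR call was the ribonuclease Ear2 (291, 319.7 and 297 CPM in Con and 241, 246 and 225 CPM in Van; log2 fold change −0.35, SE 0.06, 95% interval −0.49 to −0.21, edgeR adjusted p = 0.0319). Reads of Ear2 may be shared with the near-identical Ear1 and Ear10. Of the genes of this list with the highest CPM, the peptidase Ace and the integrin Itgal had log2 fold changes of 0.19 and 0.25 (edgeR adjusted p of 0.482 and 0.263), and the adhesion receptor Adgre4 −0.10. Leaving out 1 library gave 0.07 to 0.29 for Ace, 0.16 to 0.32 for Itgal and −0.20 to −0.0048 for Adgre4.
Of 13 classical genes, 6 were higher and 7 lower, with 3 called by edgeR in opposite directions, 4 by DESeq2 and 1 by limma. At an unadjusted edgeR p under 0.05, 2 were higher and 3 lower, beside 2 and 2 of the nonclassical genes. Ly6c2, which encodes Ly6C, was not called. It was at 389, 404 and 359 CPM in Con and 262, 272 and 377 CPM in Van, with overlap (log2 fold change −0.34, edgeR adjusted p = 0.240). The chemokine receptor Ccr2 fell (757, 757 and 679.6 CPM in Con and 316, 444 and 473 CPM in Van; log2 fold change −0.83, SE 0.14, 95% interval −1.14 to −0.52, edgeR adjusted p = 0.0283), and Ifitm6 fell too (224, 230.0 and 229 CPM in Con and 151, 156 and 153 CPM in Van; log2 fold change −0.57, SE 0.05, 95% interval −0.69 to −0.46, edgeR adjusted p = 0.0028). The proteoglycan Vcan rose (54.0, 55.5 and 32.1 CPM in Con and 92.6, 139.8 and 179 CPM in Van; log2 fold change 1.54, SE 0.26, 95% interval 0.94 to 2.13, edgeR adjusted p = 0.0309). The Ifitm6 call held in 6 of 6 fits that left out a library, that of Ccr2 in 2, that of Vcan in 1 and that of Ear2 in 0. Fn1, Plac8 and Chil3, the classical genes with the highest CPM, had log2 fold changes of −0.25, −0.08 and 0.56, none of them called. Leaving out 1 library moved these to between −0.54 and −0.02, between −0.13 and −0.03 and between 0.07 and 0.77.

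Within each group, however, the libraries differed in both lists at once, a pattern noticed after the values had been seen and given without a test. The mean log2 CPM of the nonclassical genes was 8.49, 8.35 and 8.57 in Con and 8.67, 8.40 and 8.27 in Van. That of the classical genes was 8.28, 8.42 and 8.07 in Con and 8.00, 8.29 and 8.67 in Van. In Van, library 1 was the highest for 14 of 16 nonclassical genes and the lowest for 11 of 13 classical genes, and library 3 the lowest for 14 of 16 and the highest for 12 of 13.
Among the Van libraries, Cebpa, Cebpd and Klf2 were lowest in library 1 and highest in library 3. Nr4a1, Spi1, Klf4, Zeb2 and Bcl6 were the reverse, and Cebpb was lowest in library 2. Over both groups Cebpa was lowest in Con library 3, at 133 CPM. The classical minus nonclassical difference was −0.20, 0.07 and −0.50 in Con and −0.67, −0.11 and 0.40 in Van. The part of this difference between libraries in the levels of Cebpa and Nr4a1 was not tested.

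**Figure D4:**
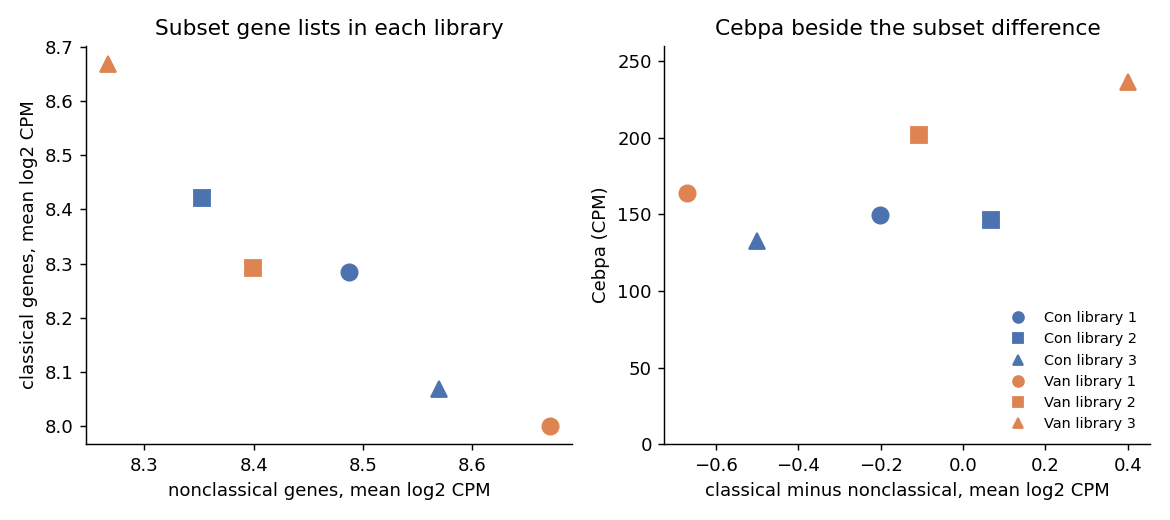
Left, mean log2 CPM of 13 classical against 16 nonclassical genes in each library; right, CPM of Cebpa against the difference of the 2 means. A library higher in one list is lower in the other, and the 3 Van libraries lie above the 3 Con libraries in Cebpa.

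Genes that the factors are known to control were counted next. Of 18 myeloid genes driven by PU.1 and C/EBP factors, 9 were higher and 9 lower. The Fc receptor gene Fcgr1 was the 1 call by edgeR (74.3, 78.1 and 74.3 CPM in Con and 59.0, 62.1 and 60.2 CPM in Van; log2 fold change −0.32, SE 0.06, 95% interval −0.45 to −0.19, edgeR adjusted p = 0.0328), and it kept the call in 0 of 6 fits that left out a library. DESeq2 called 6 of the list and limma 0, and 8 had an unadjusted edgeR p under 0.05, 3 higher and 5 lower. Those with the highest CPM in the list, the lysozyme gene Lyz2, the receptor Csf1r and the pore-forming Mpeg1, had log2 fold changes of −0.10, 0.08 and −0.18, and Lyz2 may share reads with Lyz1. Leaving out 1 library gave −0.18 to −0.0088 for Lyz2, 0.03 to 0.15 for Csf1r and −0.20 to −0.14 for Mpeg1. Of 6 KLF2 target genes, 5 were lower and 1 higher with 0 called by edgeR and by limma, 1 by DESeq2 and 2 at an unadjusted p under 0.05. The integrin Itgb7 had a log2 fold change of −0.35 and the cell cycle inhibitor Cdkn1a 0.31, with edgeR adjusted p of 0.10 and 0.256.

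Of 10 relatives and partners of the factors, 7 were higher and 3 lower in Van, with 3 called by edgeR. DESeq2 called Klf9, Klf13, Zeb1, Klf6 and Cebpg, and limma Klf9 alone. At an unadjusted edgeR p under 0.05, 4 were higher and 2 lower. Klf9 rose (49.8, 53.1 and 55.9 CPM in Con and 96.6, 84.6 and 99.9 CPM in Van; log2 fold change 0.82, SE 0.08, 95% interval 0.64 to 1.01, edgeR adjusted p = 0.0044), and so did Klf13 (733, 685 and 671 CPM in Con and 952, 927 and 929 CPM in Van; log2 fold change 0.43, SE 0.05, 95% interval 0.30 to 0.55, edgeR adjusted p = 0.0131). Both had no overlap, and the call of Klf9 held in 6 of 6 fits without a library and that of Klf13 in 3. Zeb1, the relative of Zeb2, fell (14.0, 15.3 and 15.9 CPM in Con and 11.2, 10.2 and 8.67 CPM in Van; log2 fold change −0.59, SE 0.11, 95% interval −0.85 to −0.33, edgeR adjusted p = 0.0415), and its call held in 0 of these fits.
Klf6 and Cebpg had log2 fold changes of 0.31 and 0.34 (edgeR adjusted p of 0.174 and 0.0621, DESeq2 adjusted p of 0.0348 and 0.0019), Klf3 −0.02, Nr4a2 0.20 and Nr4a3 0.22. Over the 6 fits that left out a library, Nr4a3 ran from −0.50 to 0.51, Klf3 from −0.10 to 0.06 and Nr4a2 from 0.04 to 0.50. Cebpe, a granulocyte factor, was at about 1 CPM. Whether these genes and the 9 factors differ in their response was not tested.
A list of 36 other myeloid transcription factors includes each of these relatives and partners except Klf9, so the counts overlap. Of the 36, 17 were higher and 19 lower, with Klf13 and Maf called higher by edgeR and Irf4 and Zeb1 lower. DESeq2 called 11 of the 36, beside 7.36% of all genes it tested, and limma 0. Maf, a macrophage factor, was at 77.9, 92.0 and 89.8 CPM in Con and 112, 138 and 126 CPM in Van (log2 fold change 0.53, SE 0.09, 95% interval 0.32 to 0.75, edgeR adjusted p = 0.0323), with its call kept in 1 of 6 fits without a library. Irf4, a regulator of inflammatory signalling and of dendritic cells, was at 38.6, 42.8 and 35.6 CPM in Con and 25.0, 29.2 and 24.9 CPM in Van (log2 fold change −0.57, SE 0.09, 95% interval −0.78 to −0.35, edgeR adjusted p = 0.0304), kept in 0 of 6. Irf8, which directs monocyte and dendritic cell progenitors, had a log2 fold change of −0.17 (edgeR adjusted p of 0.265).

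**Figure D5:**
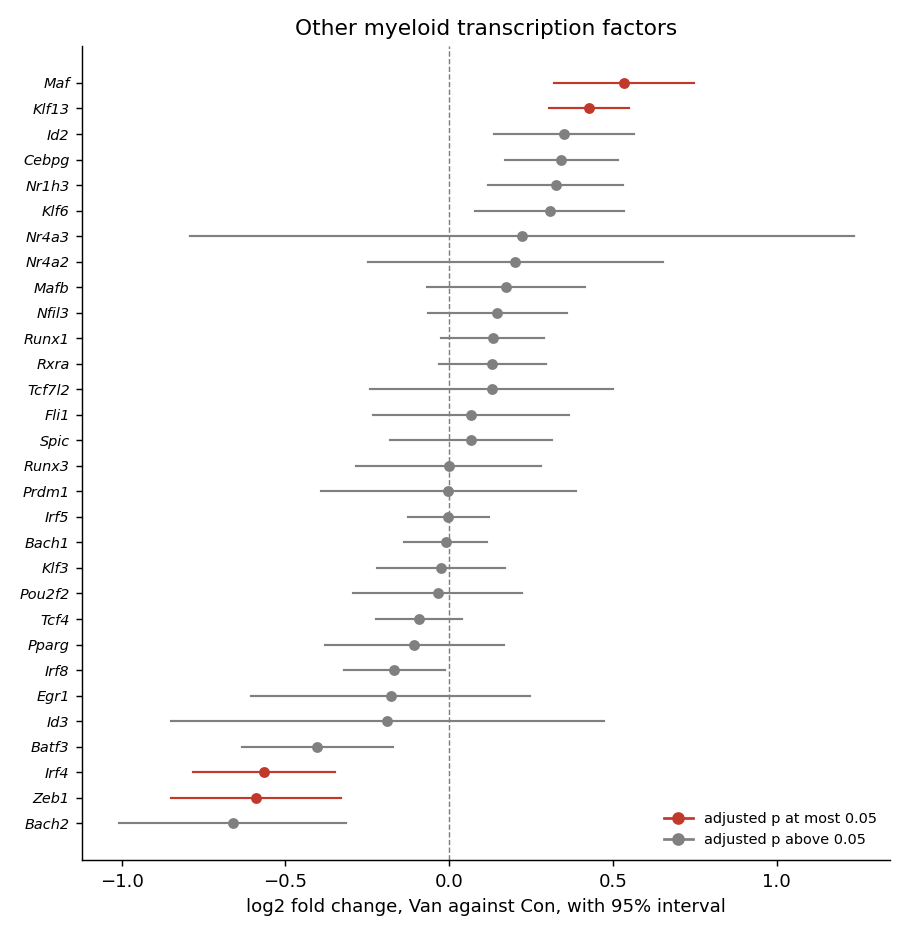
Log2 fold change (Van against Con) with its 95% interval for the 30 of 36 other myeloid transcription factors with a mean of at least 10 CPM; red marks an adjusted p of at most 0.05. Maf and Klf13 lie above 0 and Irf4 and Zeb1 below, with most factors between.

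Further lists were counted beside the factors, with no test of a list as a whole. Of 14 glucocorticoid receptor targets, 12 were higher in Van (median log2 fold change 0.24) and 2 were called, the chaperone Fkbp5 (16.2, 24.0 and 16.0 CPM in Con and 107, 110.2 and 185 CPM in Van; log2 fold change 2.84, SE 0.25, 95% interval 2.27 to 3.40, edgeR adjusted p = 0.0028) and Klf9, both of them in 6 of 6 fits without a library. DESeq2 called 4 of this list and limma 2. Of 18 immediate early genes, which respond within minutes to stimulation or handling, 10 were higher and 8 lower, with 0 called by edgeR and by limma, 3 by DESeq2 and 8 at an unadjusted p under 0.05, all 8 higher. The summed CPM of 9 erythroid markers was 84.7 to 172 in Con and 285 to 625 in Van, with 9 of 9 higher and 5 called by edgeR, 7 by DESeq2 and 0 by limma. That of 6 red pulp macrophage markers was 2618 to 3142 in Con and 3015 to 3879 in Van, with overlapping groups and 6 of 6 higher, of which edgeR called 0, DESeq2 1 and limma 0, with 3 at an unadjusted edgeR p under 0.05. Markers of NK cells summed to 26.1 to 39.3 CPM in Con and 14.9 to 21.9 CPM in Van, with 3 of 4 tested lower and 1 called by edgeR. Those of B cells (18.9 to 22.1 CPM in Con, 15.2 to 18.2 CPM in Van) had 7 of 7 lower, those of T cells (41.0 to 54.6 CPM and 31.7 to 43.8 CPM) 6 of 7 lower and those of platelets (74.6 to 92.9 CPM and 63.4 to 80.5 CPM) 6 of 6 lower. Of these 3 lists edgeR, DESeq2 and limma called 0, with 0, 1 and 2 at an unadjusted edgeR p under 0.05. The gene with the highest mean was Hmox1 in the red pulp macrophage list (1149 CPM) and Klrk1 in that of NK cells (24.0 CPM). It was Cd79b for B cells (13.8 CPM), Cd4 for T cells (32.9 CPM) and Itgb3 for platelets (55.0 CPM). These sums can rest largely on 1 gene and are not amounts of cells. The part of these lists in the levels of the factors was not tested.

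The library totals were 43.4M to 61.8M estimated counts, and the smallest count of a factor in a library was 1307. The counts may be larger than the number of fragments. After multiplication by 75, values above 0 lay within 0.05 of a whole number in 52.3% to 55.0% of cases per library, against 9.56% to 9.98% after multiplication by 74, whereas the reads are stated as pairs of 100 bases. If a read length of 75 was used, the totals stand for 16.3M to 23.2M fragments and the smallest count of a factor for 490.1. The 7 monocyte markers summed to 6195 to 6422 CPM in Con and 5724 to 6066 CPM in Van, without overlap. Of the 7, 5 were lower in Van, and 2 were called by edgeR, 4 by DESeq2 and 0 by limma, with 5 at an unadjusted edgeR p under 0.05. Ly6g of neutrophils was at 0 in every library. Plasma cell markers, with Xbp1 the highest, summed to 608 to 699.7 CPM in Con and 586 to 646 CPM in Van. Of 5 tested, 4 were lower, and 0 were called by edgeR, 1 by DESeq2 and 0 by limma, with 2 at an unadjusted edgeR p under 0.05. Dendritic cell markers summed to 128 to 167 CPM in Con and 123 to 138 CPM in Van, with 6 of 7 lower, 1 called by edgeR, 3 by DESeq2 and 0 by limma. Neutrophil markers summed to 40.9 to 65.1 CPM in Con and 35.8 to 92.4 CPM in Van, with Mmp8, also in the classical list, the highest. Of 6 tested, 5 were lower (median log2 fold change −0.64), with 0 called by edgeR, DESeq2 or limma and 0 at an unadjusted edgeR p under 0.05. Cebpa, Cebpb, Cebpd, Zeb2 and Bcl6 overlap transcripts of the opposite strand, and the sources used here do not give whether counting used the strand.

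The genes most like each factor over the 6 libraries were named by Pearson's r of log2 CPM among 8080 genes. They were Ltb and Mpp5 for Spi1 (r of 0.984 and 0.981), Usp21 and Atp5b for Cebpa (0.990 and 0.988) and Ddx21 and Cdv3 for Klf4 (both 0.982). For Cebpd they were Ppme1 and Mrpl2 (0.997 and 0.982), for Nr4a1 Agpat4 and Tcf7l2 (0.989 and 0.978), and for Cebpb Cog6 and Gemin5 (0.980 and 0.975). For Klf2 they were Mon1b and Usp10 (0.994 and 0.989), for Zeb2 Ptpn4 and Ppif (0.994 and 0.989) and for Bcl6 Atp2b4 and Impact (0.998 and 0.996). With 6 points that share 2 groups, between 9 and 61 genes had an r above 0.95 with each factor.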

How the data were processed

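Stranded libraries of polyadenylated RNA were sequenced from the splenic monocytes of the Con group (3 samples) and the Van group (3 samples). Per the labels and the study's methods, the authors aligned reads with HISAT2 2.2.1 to GRCm38, used SAMtools 1.9, quantified with StringTie 2.1.3 and Ballgown, and derived estimated counts with tximport. The deposited expected counts are not scaled to depth, and the deposited FPKM values are scaled by the authors to transcript length and depth. The annotation release, the use of the strand and the treatment of reads with several alignments were not given in the sources used here. DESeq2 1.38.3 also appears in the submitters' processing notes. The VanLip group was not analysed here.

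Counts were rounded and fitted with edgeR 4.0.16 in R 4.3.3 (TMM, minimum count 10, quasi-likelihood test, no covariates). Benjamini-Hochberg adjustment ran over 16138 genes, with the threshold for a call at 0.05. CPM values are TMM scaled. In simulated data for Van against Con, with 15903 genes, edgeR recovered 192 of 200 genes changed at a log2 fold change of 1 or −1, with 10 false calls. Every simulated gene had the same dispersion, and the largest estimate among the 9 factors was 0.49, for Cebpa. The recovery therefore does not give the sensitivity for changes of the size seen in the factors. Library totals of 43.4M to 61.8M estimated counts put at least 1307 counts behind each factor, or about 490.1 fragments if the counts were made with a read length of 75. The replicate numbers were not treated as pairs in this fit.

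The alternatives comprised 15 named in the plan and 5 added after the data had been seen. The plan named DESeq2 and limma but did not fix their configurations, which were settled later. DESeq2 1.42.0 was run in 3 configurations, and the one without a filter on low counts was kept after the calls of each had been seen and set beside the count that the study gives, so this choice was not blind to the outcome and its count is no independent check. Similarly, limma 3.58.1 on FPKM (pseudocount 1, and 0.1) was run in 2 configurations and 1 was kept after the calls were seen. The closing section gives the calls of every configuration.

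The 9 factors and the gene lists were chosen with earlier results of these data known. The marked motifs, the printed promoters, the FPKM ratios and the ordering of libraries by subset genes were chosen after sequences or values had been seen. Named genes were the 9 factors, called genes of the lists other than those of cell type markers, and 10 relatives or partners. So were up to 3 genes with the highest mean CPM of the classical, nonclassical, PU.1 and C/EBP and KLF2 lists. The 2 genes nearest to each factor among those with a mean of at least 10 CPM were named too. Outside this rule, Ly6c2 and the highest gene of several marker lists were also given. A further gene that this rule names is not reported here.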

Additional observations from a re-analysis of the deposited data

How the results depend on the processing

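The number of genes called was 322, and 320 to 391 with RLE scaling, scaling to the library total, no low-count filter, at least 10 counts in every library, 1 identifier per symbol or the fragment scale (reads of 100 bases counted in pairs, added after the data were seen). It was 39 with limma on log2(FPKM + 1) and 4 with a pseudocount of 0.1, and between 21 (without Van library 2) and 136 (without Con library 1) when a library was left out. With the replicate number as a block it was 110, with 0 factors called. Correlations were also taken of the deviations of each library from its group mean in log2 CPM. They were 0.025, −0.0019 and −0.073 for same-numbered libraries, and ran from −0.059 to 0.059 for the others. Deviations within a group sum to 0 for each gene, so these values cannot settle whether the numbers pair the libraries.

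DESeq2 called 962 genes in the configuration kept, without a filter on low counts, and 1026 and 1033 in the 2 others, on the genes that edgeR tested with filtering targets of 0.05 and 0.1. Among the factors, all 3 called the same 2, Cebpa and Klf2. The limma configuration not kept, on all tested genes, gave 21 calls and 4 with the pseudocounts of 1 and 0.1. Leaving out a library gave 0 to 1 factors called, and the 1 was Cebpa without Van library 1. In the other alternatives 0 were called.

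The direction of Cebpa, Klf2, Klf4, Cebpd, Cebpb and Zeb2 held in all 20 alternatives, although Zeb2 ran from −0.20 (limma) to −0.03 (without Van library 3) and Cebpb from 0.05 to 0.16. The sign reversed for Spi1 without Con library 3 (0.026) and without Van library 3 (0.0058), for Nr4a1 without Van library 1 (−0.054), and for Bcl6 without Con library 2 (−0.041), without Van library 1 (−0.068) and with limma (−0.014 in all 4 fits). The cause was not tested. Over the 6 fits that left out a library, the log2 fold change was −0.052 to 0.026 for Spi1, −0.054 to 0.20 for Nr4a1, −0.068 to 0.077 for Bcl6, 0.36 to 0.62 for Cebpa, 0.24 to 0.38 for Klf2 and 0.21 to 0.38 for Klf4. The share of calls that were higher was 54.0%, 90.9% without Con library 3, 85.7% without Van library 2, 71.8% with limma at a pseudocount of 1 and 75% at 0.1.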
